A study of Mus musculus with 18 samples.

Results

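The mRNA levels of 10 genes for calcium/calmodulin-dependent protein kinases and for the inhibitors of one of them were examined in the mouse brain, out of 53468 genes with counts. The genes were chosen by name. They are the 4 subunit genes of CaMKII (*Camk2a*, *Camk2b*, *Camk2d* and *Camk2g*), the 2 CaMKII inhibitor genes (*Camk2n1* and *Camk2n2*) and 4 genes of the CaM kinase cascade (*Camk4*, *Camkk1*, *Camkk2* and *Camk1d*). Poly(A) RNA was sequenced from dissected forebrain, midbrain and hindbrain of 6 littermates at postnatal day 25, 3 of them Fmr1CRE and 3 wild-type, giving 18 libraries. Fmr1CRE mice carry a variant of a regulatory element of *Fmr1*, introduced by genome editing on a C57BL/6 background, and wild-type littermates without the edit served as controls. Several such lines were made, and which one was sequenced, and the sex of the mice, are not given for these libraries. *Fmr1* encodes FMRP, an RNA-binding protein that restrains the translation of many neuronal mRNAs. The edited element lies outside the coding sequence, and the *Fmr1* level does not check the genotype labels. *Fmr1* lay between 51.1 and 83.4 CPM (gene counts scaled to the library size) over all libraries, and the genotypes overlapped in each region.

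Calcium entering a neuron binds calmodulin, and calcium-loaded calmodulin switches these kinases on. CaMKII is a ring-shaped holoenzyme that can hold several kinds of subunit and is among the most abundant proteins of the forebrain excitatory synapse. *Camk2a* mRNA is transported into dendrites, is translated there on synaptic activity and is a known FMRP target. CaMKK1 and CaMKK2 are upstream kinases that phosphorylate CaMKI and CaMKIV, and CaMKK2 also acts on AMPK, the energy sensor of the cell. The CaMKII inhibitor proteins bind the active kinase and block it.

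The libraries held from 22455512 to 28061185 counts, and all 10 genes passed the filter on low counts in every comparison. Forebrain excitatory neuron markers (5 genes) summed to between 917 and 1174 CPM in forebrain, 560 and 1067 CPM in midbrain and 122 and 230 CPM in hindbrain. The midbrain libraries therefore held forebrain excitatory marker mRNA at levels that overlapped those of forebrain. Cerebellar granule neuron markers (6 genes) summed to at most 99.4 CPM in forebrain, between 223 and 581 CPM in midbrain and between 617 and 1354 CPM in hindbrain. Hindbrain neuron markers (6 genes) summed to at most 2.66 CPM in forebrain. The labels were checked with genes that separated same-numbered mice. Of 12 genes that stood apart by more than 2 on the log2 scale between the Fmr1CRE and wild-type mice of replicate 3 in midbrain and hindbrain, 0 did so in the same direction in forebrain and 5 in the opposite direction. For replicate 1 the counts were 6 and 2 of 13 genes, and for replicate 2 they were 4 and 5 of 12. For replicate 3 in midbrain, judged by the other regions, they were 0 and 2 of 9. The check does not settle which library differs, and the forebrain genotype comparison is given with and without both libraries of replicate 3. The sums per mouse and the pairs of regions by mouse take the labels as given.

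The CaMKII subunit genes differed between the regions, mainly through *Camk2a* and *Camk2b*. *Camk2a*, the alpha subunit (chromosome 18, 60925618 to 60988152, plus strand, GRCm38), was at 1554, 3362 and 2915 CPM in the forebrain of Fmr1CRE replicates 1, 2 and 3, and at 3426, 3152 and 4915 CPM in that of wild-type replicates 1, 2 and 3. In midbrain it was at 1088, 1863 and 1896 CPM in Fmr1CRE mice and at 2173, 1912 and 1169 CPM in wild-type mice. In hindbrain it was at 68.1, 72.3 and 58.1 CPM in Fmr1CRE mice and at 46.8, 43.4 and 69.9 CPM in wild-type mice. Every forebrain and midbrain library lay above every hindbrain library, while the forebrain and midbrain ranges overlapped. The forebrain level was 53.2 times that of hindbrain (log2 fold change 5.73, SE 0.26, n = 6 mice, adjusted p = 5.5e-11 from edgeR's quasi-likelihood test), and the midbrain level 28.3 times (log2 4.82, SE 0.25, adjusted p = 5.53e-10). Forebrain exceeded midbrain by 1.88 times (log2 0.91, SE 0.21, adjusted p = 0.00698). The fit takes no account of the pairing by mouse, so these p-values measure the spread between libraries of the same region and genotype. The mice are littermates, so that spread is within 1 litter. In a bulk sample, fewer cells of a type and less RNA per cell cannot be told apart.

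**Figure D1:**
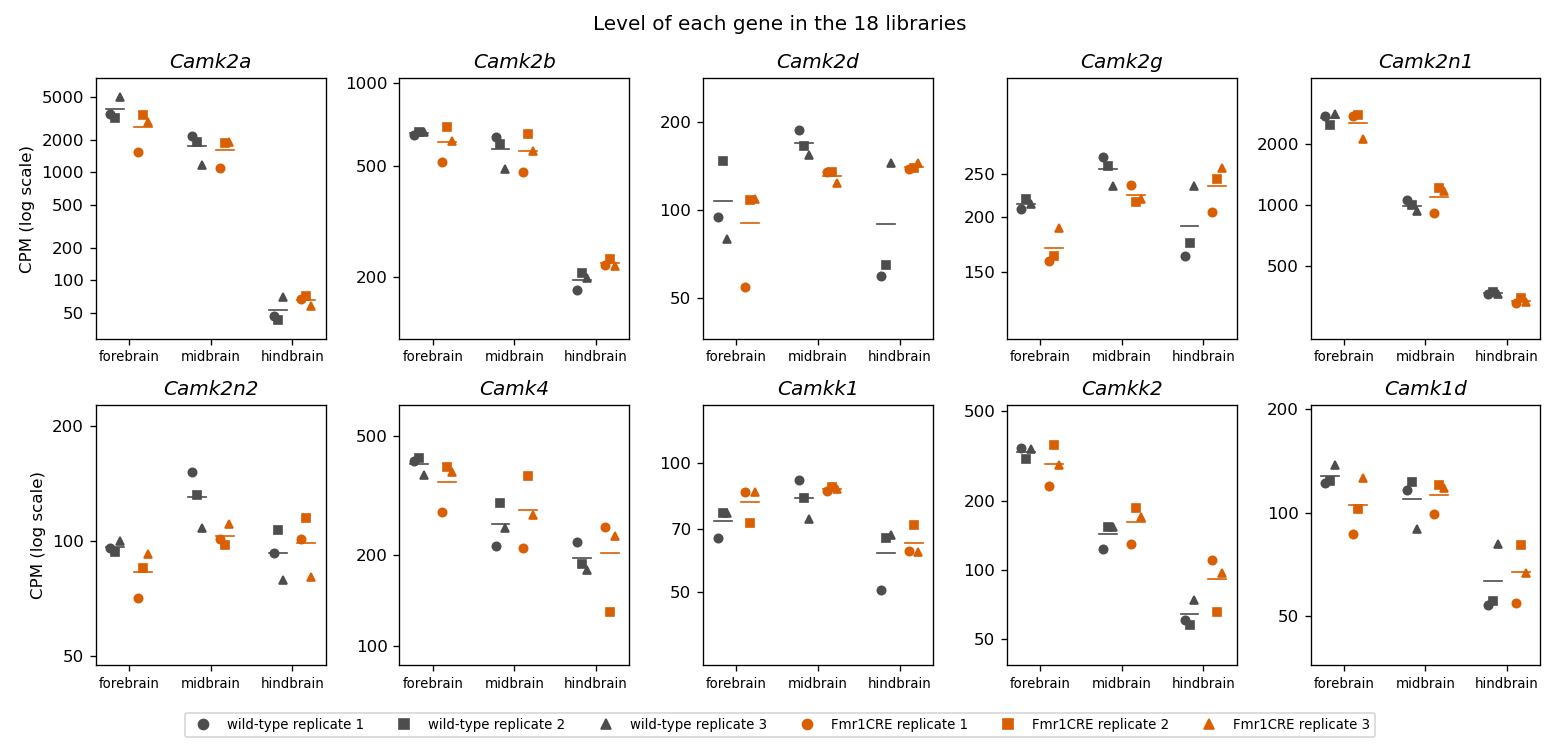
Level of each gene in the 18 libraries, in CPM on a log axis that differs between the panels, by region, with wild-type mice in grey and Fmr1CRE mice in orange. Symbols mark the replicate number and short lines the mean of 3 mice. *Camk2a* fell from 1554 CPM or more in forebrain to 72.3 CPM or less in hindbrain, whereas *Camk2d*, *Camk2g* and *Camk2n2* overlapped between all regions.

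*Camk2b*, the beta subunit that ties the holoenzyme to actin (chromosome 11, 5969644 to 6066362, minus strand), was at 521, 692 and 620 CPM in the forebrain of Fmr1CRE mice and at 648, 666 and 666 CPM in that of wild-type mice. In midbrain it ranged from 476 to 656 CPM (median 586), and in hindbrain from 179 to 231 CPM (median 213). Forebrain and midbrain overlapped, and each lay above all hindbrain libraries. The difference was 3.05-fold for forebrain over hindbrain (log2 1.61, SE 0.09, edgeR adjusted p = 8.21e-10) and 2.74-fold for midbrain over hindbrain (log2 1.45, SE 0.09, adjusted p = 5.8e-09). Between forebrain and midbrain the log2 fold change was 0.15, with a 95% confidence interval from -0.04 to 0.34 (adjusted p = 0.266).

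The delta and gamma subunits, which are expressed widely outside the brain as well, did not follow this order. *Camk2d* (chromosome 3, 126596302 to 126846326, plus strand) ranged from 54.6 to 148 CPM in forebrain (median 101.3), from 123 to 188 CPM in midbrain (median 145) and from 59.5 to 145 CPM in hindbrain (median 139). *Camk2g* (chromosome 14, 20734875 to 20794088, minus strand) ranged from 160 to 219 CPM in forebrain (median 199), from 217 to 274 CPM in midbrain (median 236) and from 164 to 258 CPM in hindbrain (median 220). The 3 regions overlapped for both genes. Of their region differences, *Camk2g* in forebrain against midbrain passed the test, at a log2 fold change of -0.33 (SE 0.09, edgeR adjusted p = 0.0173), and with the mouse as a block its adjusted p was 0.0918. In forebrain against hindbrain the log2 fold change was -0.19 for *Camk2d*, with an interval from -0.65 to 0.27. For *Camk2g* it was -0.15, with an interval from -0.34 to 0.04, and with libraries scaled by total counts alone it was -0.29 (adjusted p = 0.00650). *Camk2d* had a log2 fold change of -0.59 in forebrain against midbrain (adjusted p = 0.0681) and of 0.41 in midbrain against hindbrain (adjusted p = 0.135). Without 1 mouse the latter ran from 0.26 to 0.71, and the highest was that without wild-type replicate 3 (edgeR adjusted p = 0.00523).

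The proportions of the 4 subunit mRNAs were compared as CPM per kb, with the gene length taken from the effective transcript lengths in the deposited estimates. *Camk2a* made up a median of 71.2% of the summed CaMKII mRNA in forebrain, 57.2% in midbrain and 7.26% in hindbrain. *Camk2b* made up 17.6%, 22.9% and 28.3%, respectively. *Camk2d* made up 3.51%, 7.84% and 22.3%, and *Camk2g* 7.94%, 13.4% and 43.9%. In hindbrain *Camk2g* had the highest share in each of the 6 libraries, with 39.9% to 45.5%, and *Camk2a* the lowest, with 5.79% to 7.46%. In forebrain the order was reversed for *Camk2a*, which had the highest share in each library, with 61.1% to 79.1%. These are shares of mRNA by length and not of protein, and they depend on the length used. With lengths weighted by transcript abundance, *Camk2d* made up 7.37%, 15.3% and 32.9% in forebrain, midbrain and hindbrain and *Camk2b* 13.8%, 16.7% and 16.0%, while *Camk2a* kept the highest share in forebrain (66.8%) and *Camk2g* in hindbrain (47.6%), and *Camk2g* in forebrain was at 12.1% and *Camk2a* in hindbrain at 4.83%.

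**Figure D2:**
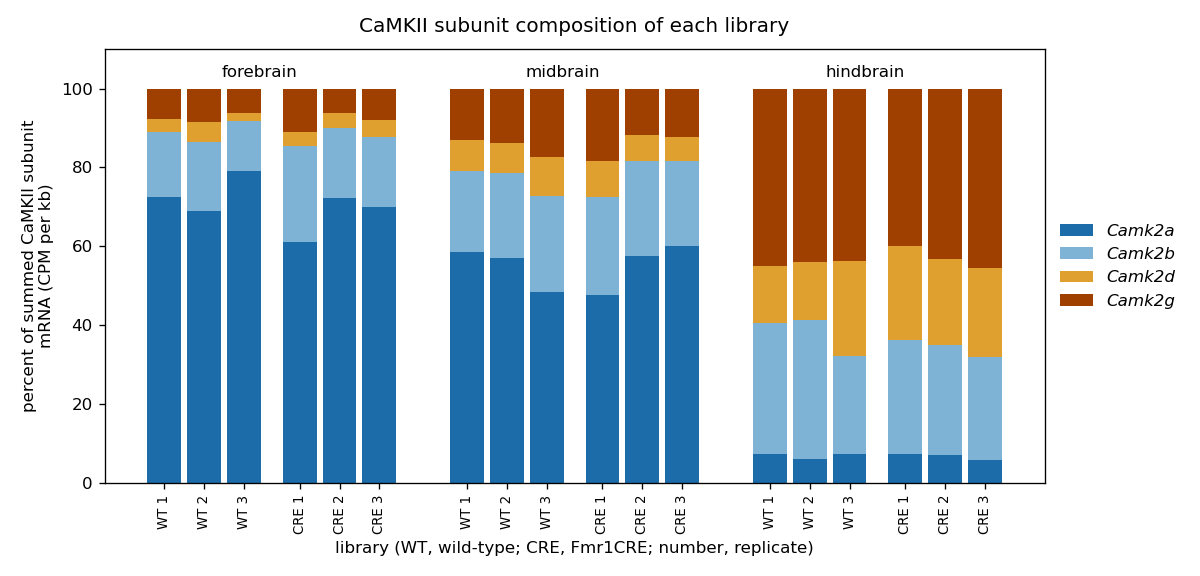
Share of each CaMKII subunit gene in the summed CaMKII mRNA (CPM per kb, in percent) in each of the 18 libraries, as stacked bars grouped by region and genotype. *Camk2a* took 47.6% or more in every forebrain and midbrain library and 7.46% or less in every hindbrain library, where *Camk2g* took the highest share.

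The ratio of *Camk2a* to *Camk2b*, which sets the mix of alpha and beta mRNA available for the holoenzyme, was computed per length in each library. In forebrain it was 2.50, 4.06 and 3.93 in Fmr1CRE replicates 1, 2 and 3 and 4.42, 3.96 and 6.17 in wild-type replicates 1, 2 and 3. In midbrain it was 1.91, 2.38 and 2.78 in Fmr1CRE mice and 2.85, 2.65 and 2.01 in wild-type mice. In hindbrain it was 0.259, 0.262 and 0.222 in Fmr1CRE mice and 0.219, 0.176 and 0.295 in wild-type mice. Alpha mRNA thus exceeded beta mRNA in every forebrain and midbrain library, and beta exceeded alpha in every hindbrain library. The values rest on lengths of 5154.3 bases for *Camk2a* and 4309.2 bases for *Camk2b*. Weighted by transcript abundance, the lengths were 3513.2 and 3462.9 bases, which would raise every ratio by the same factor and leave the region differences unchanged. Within mice, the ratio was higher in forebrain than in hindbrain by 4.10 on the log2 scale (SE 0.18, 17.1-fold), in midbrain than in hindbrain by 3.35 (SE 0.19, 10.2-fold) and in forebrain than in midbrain by 0.75 (SE 0.18, 1.68-fold). Each difference had the same sign in 6 of 6 mice, with p = 0.03125 in a two-sided exact permutation test, the smallest that 6 mice can give, and 0.03125 after Benjamini-Hochberg adjustment over the 3 pairs of regions. The midbrain libraries with the lowest ratios, Fmr1CRE replicate 1 and wild-type replicate 3, also had the lowest sums of forebrain excitatory markers in midbrain, 560 and 705 CPM. The part of these markers in the ratio was not tested.

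**Figure D3:**
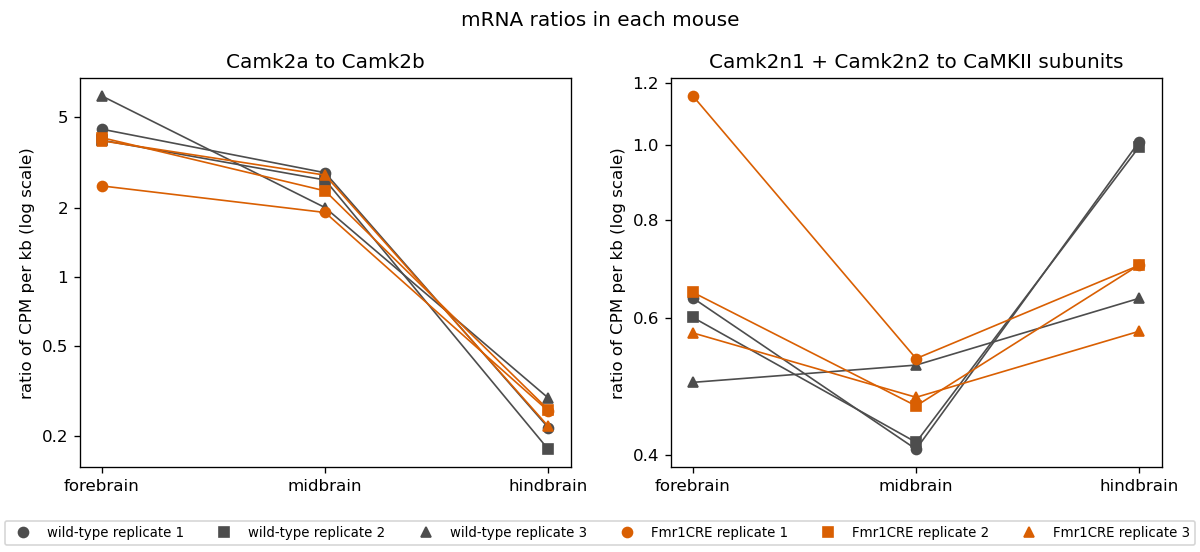
Ratio of *Camk2a* to *Camk2b* mRNA (left) and of the summed inhibitor mRNA to the summed CaMKII subunit mRNA (right), both from CPM per kb and on a log axis, with 1 line per mouse across the 3 regions. With lengths weighted by reads, the *Camk2a* to *Camk2b* ratio lay above 1 in forebrain and midbrain and below 0.3 in hindbrain in each mouse. The inhibitor ratio was lower in midbrain than in hindbrain in each mouse.

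The genes of the CaMKII inhibitors encode small proteins of similar sequence, and they differed in their regional pattern. The coding sequences of their GENCODE M21 transcripts (GRCm38, read 5′ to 3′ across the intron) are shown because their likeness stands beside different levels. *Camk2n1* lies at chr4:138455186-138456788 on the plus strand and *Camk2n2* at chr16:20620173-20621194 on the minus strand, from the start to the stop codon. They are 237 and 240 bases long and identical at 169 aligned bases, 71.3% of those aligned without a gap. Capitals mark the 2 runs of 12 or more bases without a difference, the longer of which, at 23 bases, belongs to the stretch known to bind the kinase.
Camk2n1: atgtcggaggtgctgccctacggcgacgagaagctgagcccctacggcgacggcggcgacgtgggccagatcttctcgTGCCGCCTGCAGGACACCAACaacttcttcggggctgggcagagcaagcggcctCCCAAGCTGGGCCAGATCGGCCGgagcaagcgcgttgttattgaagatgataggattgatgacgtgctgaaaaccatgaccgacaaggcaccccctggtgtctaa
Camk2n2: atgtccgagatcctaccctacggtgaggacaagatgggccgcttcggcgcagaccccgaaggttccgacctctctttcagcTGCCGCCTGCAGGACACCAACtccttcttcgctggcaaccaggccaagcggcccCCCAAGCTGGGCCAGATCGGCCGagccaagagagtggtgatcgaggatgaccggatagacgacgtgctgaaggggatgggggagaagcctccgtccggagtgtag

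*Camk2n1* (gene span on chromosome 4, 138454314 to 138460123) was at 2747, 2774 and 2124 CPM in the forebrain of Fmr1CRE mice and at 2734, 2482 and 2805 CPM in that of wild-type mice. In midbrain it was at 914, 1212 and 1170 CPM in Fmr1CRE mice and at 1056, 997 and 935 CPM in wild-type mice. In hindbrain it was at 331, 348 and 335 CPM in Fmr1CRE mice and at 368, 373 and 365 CPM in wild-type mice. It was the only gene of the 10 with no overlap between any 2 regions, apart from *Camkk2*. The forebrain level was 7.4 times that of hindbrain (log2 2.89, SE 0.09, edgeR adjusted p = 1.72e-12) and 2.5 times that of midbrain (log2 1.32, SE 0.08, adjusted p = 9.64e-08). Midbrain exceeded hindbrain by 2.97 times (log2 1.57, SE 0.08, adjusted p = 8e-10).

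*Camk2n2* (gene span on chromosome 16, 20619215 to 20621287) was at 71.1, 85.1 and 92.8 CPM in the forebrain of Fmr1CRE mice and at 96.0, 93.7 and 99.9 CPM in that of wild-type mice. It ranged from 97.6 to 152 CPM in midbrain (median 110) and from 78.9 to 115 CPM in hindbrain (median 97.1). The regions overlapped throughout. Its level was lower in forebrain than in midbrain by 0.38 on the log2 scale (log2 fold change -0.38, SE 0.11, edgeR adjusted p = 0.021). It was higher in midbrain than in hindbrain by 0.28 (SE 0.11, adjusted p = 0.0405), and with the mouse as a block that adjusted p was 0.0695. Between forebrain and hindbrain the log2 fold change was -0.10, with an interval from -0.32 to 0.13, and with total counts alone it was -0.24 (adjusted p = 0.0488).

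The proportion of inhibitor to kinase mRNA did not pass the test between any regions after adjustment. With 6 mice, a pair of regions that alone reaches the smallest possible p cannot pass after adjustment. The summed inhibitor mRNA was between 0.496 and 1.15 times the summed CaMKII subunit mRNA per kb in forebrain (median 0.618), between 0.407 and 0.532 times in midbrain (median 0.468) and between 0.576 and 1.01 times in hindbrain (median 0.701). Fmr1CRE replicate 1 had the highest forebrain value and the lowest *Camk2a* level of that region. In hindbrain, wild-type replicates 1 and 2 stood at 1.01 and 0.994, above the other 4 mice. Midbrain was lower than hindbrain in 6 of 6 mice by 0.69 on the log2 scale (log2 difference -0.69, SE 0.19, exact permutation p = 0.03125, adjusted 0.0938). That unadjusted p is the smallest that 6 mice can give, so the adjusted value does not decide whether midbrain and hindbrain differed. Forebrain exceeded midbrain in 5 of 6 mice by 0.50 (SE 0.16, exact permutation p = 0.0625, adjusted 0.0938). The log2 difference between forebrain and hindbrain was -0.19 (SE 0.22, adjusted exact permutation p = 0.344), and it turned to 0.27 when gene lengths were weighted by transcript abundance instead of reads.

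All 4 genes of the CaM kinase cascade were higher in forebrain than in hindbrain, by different amounts. *Camkk2* (chromosome 5, 122731170 to 122779409, minus strand), the kinase upstream of AMPK, CaMKI and CaMKIV, was at 234, 354 and 288 CPM in the forebrain of Fmr1CRE mice and at 342, 308 and 339 CPM in that of wild-type mice. In midbrain it was at 130, 188 and 170 CPM in Fmr1CRE mice and at 123, 154 and 154 CPM in wild-type mice. In hindbrain it was at 111, 65.3 and 97.3 CPM in Fmr1CRE mice and at 60.5, 57.4 and 73.7 CPM in wild-type mice. The regions did not overlap. Forebrain was 4.06 times hindbrain (log2 2.02, SE 0.14, edgeR adjusted p = 7.09e-09) and 2.03 times midbrain (log2 1.02, SE 0.14, adjusted p = 0.000108), and midbrain was 2.0 times hindbrain (adjusted p = 2.18e-05). *Camkk1* (chromosome 11, 73019008 to 73042073, plus strand), its paralog, varied less, from 67.0 to 85.8 CPM in forebrain (median 76.5), 74.2 to 91.3 CPM in midbrain (median 86.6) and 50.5 to 71.5 CPM in hindbrain (median 64.6). It was higher than hindbrain in forebrain by 0.28 on the log2 scale (SE 0.08, edgeR adjusted p = 0.0105) and in midbrain by 0.42 (SE 0.08, adjusted p = 0.000726). With total counts alone the first of these was 0.15 (adjusted p = 0.142). Forebrain against midbrain gave a log2 fold change of -0.14 (adjusted p = 0.286).

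*Camk4*, the nuclear kinase that phosphorylates CREB (chromosome 18, 32934931 to 33191228, plus strand), was at 279, 394 and 380 CPM in the forebrain of Fmr1CRE mice and at 412, 423 and 370 CPM in that of wild-type mice. It ranged from 211 to 367 CPM in midbrain (median 260) and from 129 to 248 CPM in hindbrain (median 204). Forebrain lay above all hindbrain libraries, and midbrain overlapped both. Forebrain was 1.89 times hindbrain (log2 0.92, SE 0.16, edgeR adjusted p = 0.000195). Its forebrain excess over midbrain was 0.49 on the log2 scale (SE 0.16, adjusted p = 0.0456, 0.0686 with the mouse as a block), and its midbrain excess over hindbrain was 0.43 (SE 0.16, adjusted p = 0.0376, 0.0631 with the block). An antisense gene, *2310026I22Rik*, shares 72 exonic bases with *Camk4* and had 67 counts over all 18 libraries.

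*Camk1d*, which encodes a CaMKI isoform (chromosome 2, 5293457 to 5714515, minus strand), ranged from 86.5 to 138 CPM in forebrain (median 123), 89.5 to 123 CPM in midbrain (median 117) and 53.9 to 80.7 CPM in hindbrain (median 60.9). Forebrain and midbrain overlapped, and both lay above hindbrain. It was 1.78 times as high in forebrain (log2 0.83, SE 0.13, edgeR adjusted p = 6.19e-05) and 1.7 times as high in midbrain (log2 0.77, SE 0.13, adjusted p = 0.000162) as in hindbrain. Between forebrain and midbrain the log2 fold change was 0.06, with an interval from -0.22 to 0.33.

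Counted over the 10 genes, 7 were higher in forebrain than in hindbrain and 0 lower, where 26.4% of the 20363 genes tested were higher, 25.3% lower and 51.7% passed the test in either direction. Midbrain exceeded hindbrain for 8 of the 10 and was lower for 0, against 25.1% higher, 24.0% lower and 49.1% in either direction over all genes. With the mouse as a block, 6 remained past the threshold. In forebrain against midbrain 4 were higher (*Camk2a*, *Camk2n1*, *Camk4* and *Camkk2*) and 2 lower (*Camk2g* and *Camk2n2*), against 9.38% higher, 9.96% lower and 19.3% in either direction over all genes, and 4 passed with the block. Groups of 6 libraries did not overlap for 6 genes in forebrain against hindbrain (27.7% of all genes), for 6 in midbrain against hindbrain (26.9%) and for 2 in forebrain against midbrain (10.5%). The median log2 fold change of the 10 genes was 0.87, 0.60 and 0.11 in forebrain against hindbrain, midbrain against hindbrain and forebrain against midbrain, beside medians over all genes tested of -0.01, -0.03 and 0.02. Oligodendrocyte markers (6 genes) summed to between 12880 and 16420 CPM in forebrain and between 29540 and 41480 CPM in hindbrain, so the hindbrain libraries held more myelin mRNA, and its part in these differences was not tested.

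**Figure D4:**
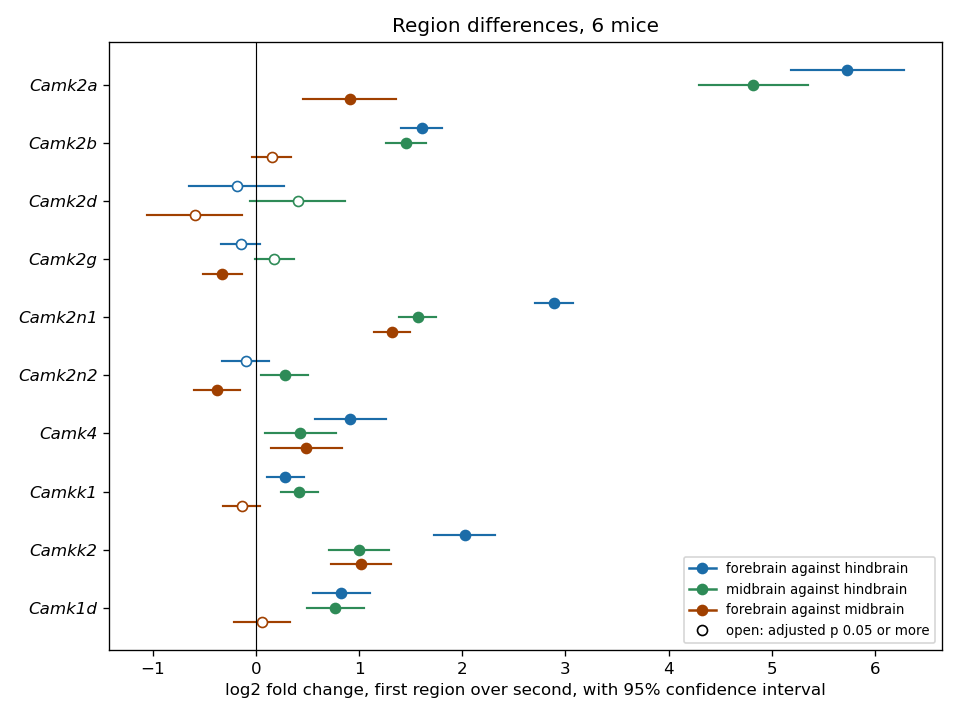
Log2 fold change of each gene between regions, with its 95% confidence interval, from 6 mice and 1 fit of all 18 libraries. Filled points have an adjusted p under 0.05. *Camk2a*, *Camk2n1* and *Camkk2* passed the test in all 3 comparisons with 1 direction, forebrain above midbrain above hindbrain, as did *Camk4* by a smaller margin, and *Camk2d* passed in 0 of them.

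Set in order of CPM per kb, *Camk2a* was the most abundant of the 10 mRNAs in forebrain and midbrain and the ninth in hindbrain. Its median was 632 CPM per kb in forebrain, followed by *Camk2n1* at 526.0, *Camk2b* at 152, *Camk2g* at 68.4, *Camkk2* at 62.4 and *Camk2n2* at 55.8. *Camk2a* and *Camk2n1* overlapped in that region, with 302 to 954 and 408 to 538 CPM per kb. In hindbrain *Camk2g* led with a median of 75.6 CPM per kb, followed by *Camk2n1* at 68.4, *Camk2n2* at 58.1, *Camk2b* at 49.4 and *Camk2d* at 42.3. *Camk2g*, *Camk2n1* and *Camk2n2* overlapped there. *Camk2a* was at 12.2 CPM per kb in hindbrain, within the range of *Camkk2* (11.1 to 21.4), and *Camk1d* was lowest with 9.20. With lengths weighted by transcript abundance, *Camk2d* was second in hindbrain, at 138.5 CPM per kb, between *Camk2g* at 179.9 and *Camk2n1* at 68.4, and *Camk2a* stayed first in forebrain and midbrain and the ninth in hindbrain. The orders were not tested between genes.

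Some genes followed the kinase genes closely over the 18 libraries. Over 11190 genes, log2 CPM of *Neurl1b* and *Gpr26* had the highest Pearson correlation with *Camk2a* (r = 0.996 each), followed by *Hpcal4*, *Cnksr2* and *Hivep2* (0.995 each). For *Camk2b* they were *Celf2* and *Cnksr2* (0.994 each), *Mrtfb* (0.992), and *Ripor2* and *Lingo1* (0.991 each), so *Cnksr2* stood in both lists. *Camk1d* was closest to *Sptbn1* (0.980), *Tanc2* (0.970), *Bmpr2* (0.969), *Myo5a* (0.968) and *Sort1* (0.964). *Camk4* had lower values, with *Prmt8* (0.929), *Rnf114* (0.913), *Mcrs1* (0.911), *Ubr7* (0.902) and *Fam131b* (0.899). The points share 3 regions and 6 mice and fall into groups by region, so these values describe regional likeness and carry no test.

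The genes around these kinases were counted in forebrain against hindbrain from 6 lists, beside 26.4% of all genes higher and 25.3% lower. Of 10 other calcium/calmodulin-linked kinases and relatives, 7 were higher in forebrain and 0 lower, led by *Camkv*, a kinase-like protein without activity (394 against 33.2 CPM, log2 3.57, SE 0.11), and *Dapk1*, a cell death kinase (91.4 against 22.4 CPM, log2 2.03, SE 0.10). *Mylk*, myosin light chain kinase, and *Cask*, a synaptic scaffold, followed with log2 fold changes of 1.25 and 0.73. Of 9 calmodulin genes and calmodulin buffers, 7 were higher and 0 lower. *Nrgn*, neurogranin, which holds calmodulin in dendritic spines, had the largest difference of all listed genes, 1056 against 14.5 CPM (74.1-fold, log2 6.21, SE 0.23, edgeR adjusted p = 5.82e-12). *Marcks* and *Gap43*, which bind calmodulin at the membrane, had log2 fold changes of 0.77 and 0.46.

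Of 13 genes for calcineurin, its regulators and phosphatases that act on CaM kinases, 6 were higher in forebrain than in hindbrain and 3 lower. The calcineurin subunit genes *Ppp3ca* (1029 against 367 CPM, log2 1.49, SE 0.11) and *Ppp3r1* (789 against 318 CPM, log2 1.31, SE 0.09) were higher. The calcineurin regulators *Rcan2* (log2 -0.51, SE 0.08) and *Rcan3* (log2 -0.48, SE 0.15) were lower. All 11 CaMKII partners and substrates at the synapse passed the test, 9 higher and 2 lower, with a median log2 fold change of 2.16. The exchange factor gene *Kalrn* (465 against 27.6 CPM, log2 4.07, SE 0.12) and the syntaxin gene *Stx1a* (222 against 15 CPM, log2 3.89, SE 0.13) were highest. The AMPA receptor subunit gene *Gria1* (265 against 333 CPM, log2 -0.33, SE 0.11) and *Cacng2*, its trafficking partner (100.2 against 119 CPM, log2 -0.25, SE 0.09), were the 2 lower ones. Of 15 AMPK subunit and CREB pathway genes, 7 were higher, among them the CREB coactivator gene *Crtc1* (log2 2.07, SE 0.22) and *Hdac4*, a CaMKII and CaMKIV substrate (log2 1.18, SE 0.18). The 3 lower genes included the AMPK subunit genes *Prkaa1* (log2 -0.47, SE 0.09) and *Prkag3* (log2 -1.67, SE 0.64), the latter at under 0.5 CPM in each region. Of 9 other calmodulin-regulated enzymes, 5 were higher, with the phosphodiesterase genes *Pde1a* and *Pde1b* at log2 2.89 and 1.98 and the adenylyl cyclase gene *Adcy1* at 781 against 342 CPM, and 1 was lower, *Pde1c* at log2 -1.78 (SE 0.15).

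In forebrain against midbrain, where 9.38% of all genes were higher and 9.96% lower, the lists gave lower counts, as did all genes. There 4 of 10 other kinases were higher and 2 lower, 5 of 9 calmodulins and buffers higher and 0 lower, and 4 of 13 calcineurin and phosphatase genes higher and 1 lower. Of the synaptic partners, 5 of 11 were higher and 1 lower. Of the AMPK and CREB genes 1 was higher and 1 lower, and of the other calmodulin-regulated enzymes 1 was higher and 4 lower. In midbrain against hindbrain, beside 25.1% and 24.0% of all genes, the counts of higher and lower genes were 6 and 1, 5 and 2, 4 and 2, 10 and 0, 4 and 1, and 8 and 1 for the 6 lists in the same order.

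Fmr1CRE and wild-type mice, 3 of each, were set against each other region by region to ask whether the regulatory variant altered the mRNA of these kinases. The number of the 10 genes past the threshold was 0 in forebrain, midbrain and hindbrain, with edgeR and with DESeq2. Over all genes the share past the threshold with edgeR was 0.0% in forebrain, 0.00543% in midbrain and 0.0% in hindbrain. An unadjusted p under 0.05 was found in forebrain for 1 of the 10 genes and 1002 of 18467 genes tested, in midbrain for 2 of the 10 and 1135 of 18400, and in hindbrain for 1 of the 10 and 981 of 19112. In the 6 lists of related genes, 0 passed the threshold in each region.

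In forebrain the 10 log2 fold changes lay between -0.53 and 0.18, 9 of them below 0, beside a median over all genes tested of 0.0009. The 10 genes were measured in the same 6 libraries, so their signs are not independent and the count carries no test. *Camk2g* had the smallest p. It was at 160, 164 and 189 CPM in Fmr1CRE mice and at 209, 219 and 214 CPM in wild-type mice, with no overlap, and its log2 fold change was -0.30 (SE 0.10, interval -0.52 to -0.07, unadjusted p = 0.0165, edgeR adjusted p = 0.806). *Camk2n2*, named here after its values were seen, also had no overlap, so that 2 of the 10 genes did not overlap, where 10.2% of all genes did not. *Camk2a*, likewise named after its values were seen, had the widest difference, with a log2 fold change of -0.53 (SE 0.28, interval -1.19 to 0.13, adjusted p = 0.806). Fmr1CRE replicate 1 was the lowest of the 6 forebrain libraries for *Camk2a*, *Camk2b*, *Camk2d*, *Camk2g*, *Camk2n2*, *Camk4*, *Camkk2* and *Camk1d*, and it also had the lowest sums of forebrain excitatory markers (917 CPM) and of 6 striatal markers (413 CPM, against 655 to 999.6 CPM in the other libraries). It was also the lowest for the markers of astrocytes (1051 CPM), microglia (230.2 CPM) and endothelial cells (125 CPM) and the highest for those of choroid plexus (866 CPM). Its sums of oligodendrocyte markers (14560 CPM) and immediate early genes (746 CPM) lay within the range of the other forebrain libraries. Its TMM factor was 1.0418, against 0.9145 to 0.952 in the others, and a higher factor lowers all CPM values of a library. The part of the markers was not tested. Leaving out 1 library gave *Camk2a* log2 fold changes from -0.76 to -0.28. The value was -0.28 without Fmr1CRE replicate 1 and -0.30 without wild-type replicate 3. Without both forebrain libraries labelled replicate 3, *Camk2g* had -0.35 and *Camk2a* -0.38 (edgeR adjusted p = 0.319 and 0.643).

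In midbrain *Camk2d* had the smallest p. It was at 135, 135 and 123 CPM in Fmr1CRE mice and at 188, 165 and 154 CPM in wild-type mice, without overlap, and its log2 fold change was -0.37 (SE 0.09, interval -0.59 to -0.15, unadjusted p = 0.00515, edgeR adjusted p = 0.751). It was the 1 gene of the 10 without overlap there, against 11.3% of all genes. The other 9 log2 fold changes lay between -0.33 and 0.17. The lowest of these was that of *Camk2n2*, named after its values were seen (SE 0.13, interval -0.63 to -0.04, unadjusted p = 0.0301, edgeR adjusted p = 0.803), whose genotypes overlapped.

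In hindbrain 9 of the 10 log2 fold changes were above 0, beside a median over all genes tested of -0.0091. These signs are not independent either, and their count carries no test. *Camkk2* had the smallest p. Its log2 fold change was 0.51 (SE 0.20, interval 0.04 to 0.97, unadjusted p = 0.0354, edgeR adjusted p = 0.875), and the genotypes overlapped. *Camk2b* was at 220, 231 and 219 CPM in Fmr1CRE mice and at 179, 206 and 198 CPM in wild-type mice, and *Camk2n1* was lower in all 3 Fmr1CRE mice. These 2 genes, named after their values were seen, did not overlap, where 10.8% of all genes did not. *Camk2d*, also named after its values were seen, was at 138, 139 and 144 CPM in Fmr1CRE mice and at 59.5, 64.9 and 145 CPM in wild-type mice. Wild-type replicate 3 thus lay with the Fmr1CRE mice, while wild-type replicates 1 and 2 were lower. The log2 fold change of *Camk2d* was 0.64 (SE 0.31, interval -0.06 to 1.35, edgeR adjusted p = 0.875). Without 1 library it ran from 0.43 to 1.16. The highest value was that without wild-type replicate 3 (edgeR adjusted p = 0.0405), a fit in which 5 of 19697 genes passed. That fit leaves out the wild-type library that lay with the Fmr1CRE mice, so its p-value is no separate evidence of a difference. Choroid plexus markers (5 genes) summed to 3238, 2616 and 909.7 CPM in the hindbrain of wild-type replicates 1, 2 and 3 and to between 1365 and 1407 CPM in Fmr1CRE mice, so they were highest in the libraries where *Camk2d* was lowest. Their part was not tested.

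**Figure D5:**
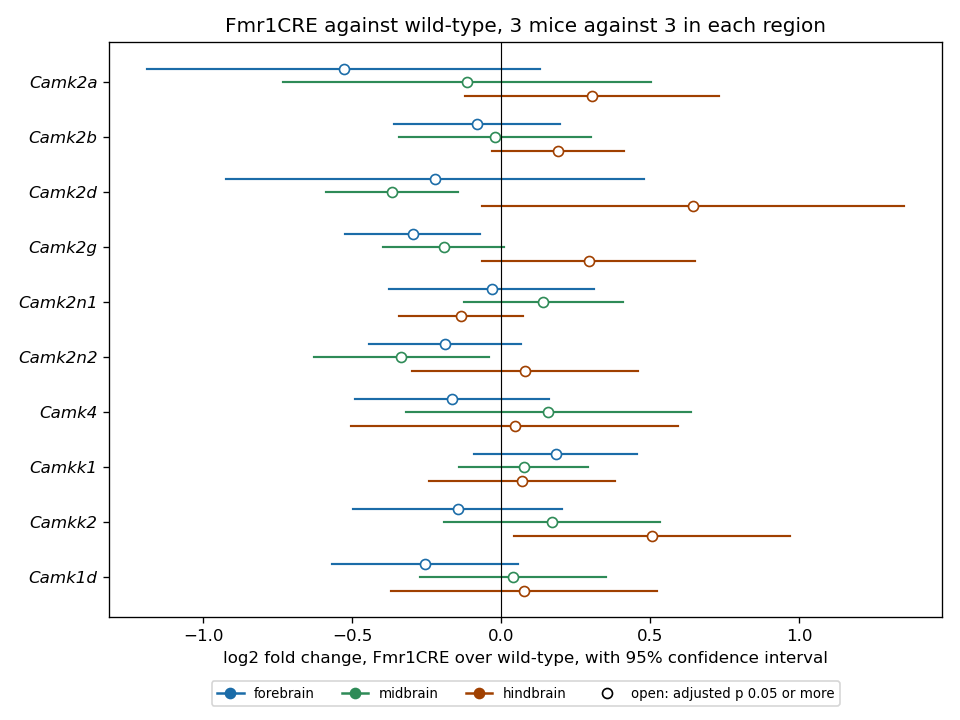
Log2 fold change of each gene in Fmr1CRE against wild-type mice in forebrain, midbrain and hindbrain, with its 95% confidence interval, from 3 mice against 3 in each region. All points are open, since 0 of the 10 genes passed the threshold of 0.05. The interval of *Camk2d* in hindbrain ran from -0.06 to 1.35.

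When each mouse was taken as 1 sample, its 3 libraries added up, 0 of the 10 genes passed the threshold with edgeR or DESeq2, beside 0.00451% of all genes with edgeR, and 0 had an unadjusted p under 0.05 (820 of 22191 genes did). The log2 fold changes lay between -0.35 (*Camk2a*) and 0.12 (*Camkk1*). *Camkk1* had the smallest p (SE 0.06, interval -0.02 to 0.26, unadjusted p = 0.0833, edgeR adjusted p = 0.998). The test of whether the genotype effect differed between the regions called 0 of the 10 genes with edgeR or DESeq2, where 0.0% of all genes passed with edgeR. An unadjusted p under 0.05 was found for 1 of the 10 genes and for 1535 of 20363 genes. That gene was *Camk2g*, whose log2 fold change was -0.30 in the forebrain fit, -0.19 in the midbrain fit and 0.29 in the hindbrain fit (unadjusted p = 0.0071, edgeR adjusted p = 0.66). Without the mice of replicate 3 its adjusted p was 0.0716, and 131 of 20602 genes (0.636%) passed in that fit.

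The log2 ratio of *Camk2a* to *Camk2b* differed between the genotypes by -0.48 in forebrain (SE 0.30), -0.09 in midbrain (SE 0.22) and 0.14 in hindbrain (SE 0.23), Fmr1CRE minus wild-type. In two-sided exact permutation tests of 3 mice against 3, whose smallest p is 0.1, the p-values were 0.2, 0.7 and 0.6, and after adjustment over the 3 regions 0.6, 0.7 and 0.7. The genotypes overlapped in each region. Without both forebrain libraries labelled replicate 3, the forebrain difference was -0.39.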

How the data were processed

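Poly(A) RNA of 18 libraries was read as single-end reads of 50 bases. By the study's methods the libraries formed 2 pools of equal size, each run on 1 flow cell. Which libraries shared a pool is not given in the sources used here, so the part of the pools was not tested. The authors quantified transcripts with Salmon 0.14.0 in the bcbio_nextgen pipeline against mm10 and listed DESeq2 1.30.1, according to the submitters' processing notes and the study's methods. The annotation is not given in the sources used here. The authors deposited gene counts, which are transcript estimates summed per gene and rounded, without normalization. The deposited expected counts and TPM per transcript were used only for gene lengths, pooled over the 18 transcript sets, since the sample record and the name of a set agreed for 2 of 18. The TPM values were not compared. The copy of the variance-stabilized values held none of the 10 genes and was not used. Symbols and positions come from GENCODE M21 (GRCm38). The number of unused measured columns was 0.

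Each library belonged to 1 region and 1 genotype. CPM values used TMM-scaled library sizes, and log2 CPM a prior count of 2. Regions were compared in 1 fit of all 18 libraries, and genotypes from the 6 libraries of a region. Both used edgeR 4.0.16 under R 4.3.3 (edgeR's filter on low counts, quasi-likelihood test, Benjamini-Hochberg adjustment over all genes, threshold 0.05). SE and 95% intervals come from the same fits. The length of a gene was its effective length weighted by reads, as a median over the transcript sets. Ratios were tested with exact permutation tests, paired by mouse between regions. The alternatives included DESeq2 1.42.0, other scalings and filters, a block for the mouse or replicate number, and leaving out mice. The tests were tested on simulated data. Region libraries with the same number come from the same mouse, by the titles, and their deviations from the group means correlated between -0.17 and 0.178 (median 0.0405, 18 pairs). The pairs with a forebrain library of replicate 3 were at -0.032 and -0.17 (Fmr1CRE) and at -0.085 and -0.02 (wild-type). Outside these, only forebrain and midbrain of wild-type replicate 2 were below 0 (-0.026). Same-numbered mice of the 2 genotypes share only a number.

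All 10 genes were named in the region comparisons, and in each genotype comparison the gene with the smallest p. In each list up to 4 genes with the largest difference in forebrain against hindbrain were named, from both directions where possible. A gene that this rule would name is not reported here. For *Camk2a*, *Camk2b*, *Camk4* and *Camk1d* the 5 most similar genes with a mean log2 CPM of at least 3 were named. The genes and lists were chosen with earlier results of these data known.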

Additional observations from a re-analysis of the deposited data

Results flagged for a closer look

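*Camk4* in the forebrain of Fmr1CRE replicate 1, at 279.16 CPM, lay below the other 5 forebrain libraries (370 to 423 CPM) by more than 0.625 of the whole range (0.628), the critical share for 6 libraries. It was the 1 such value among 30 groups of 6 libraries, of which chance would mark about 1 in 20. The TMM factor of that library was 1.0418, against 0.9145 to 0.952 in the other forebrain libraries. A higher factor lowers all CPM values of a library, and the flag rests on that scaling. The same library had the lowest forebrain sums of the excitatory neuron (917 CPM), striatal, astrocyte, microglia and endothelial markers and the highest of the choroid plexus markers (866 CPM). Its sum of the oligodendrocyte markers lay within the range of the other forebrain libraries. Their part was not tested.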

How the results depend on the processing

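The region differences of *Camk2a* and *Camk2b* against hindbrain, and of *Camk2n1* in all 3 comparisons, kept their direction and stayed past the threshold in 16 of 16 alternatives. *Camk2a* and *Camkk2* in forebrain against midbrain did so in all but the fit of Fmr1CRE mice alone. *Camk2d* in forebrain against midbrain, not called in the main fit, passed the threshold in 5 of 16 alternatives with its direction kept. So did *Camk2g* in 2 alternatives and *Camk2d* in 1, in each comparison with hindbrain, and *Camk2n2* in 1 in forebrain against hindbrain. Weaker calls were those of *Camk4*, lost in 9 of 16 alternatives in forebrain against midbrain and in 10 in midbrain against hindbrain, *Camk2n2* in midbrain against hindbrain (8), *Camk2g* in forebrain against midbrain (7), and *Camkk1* in forebrain against hindbrain and *Camk2n2* in forebrain against midbrain (5 each). The count of the 10 genes past the threshold in forebrain against midbrain, 6, was 1 in Fmr1CRE mice only and 3 to 5 without 1 mouse, with 3 without Fmr1CRE replicate 1 and 3 without wild-type replicate 1. Over all genes that comparison called 3939 genes, 527 in Fmr1CRE mice only, 1729 in wild-type mice only, 2592 without Fmr1CRE replicate 1, 2258 without wild-type replicate 1 and 2337 without wild-type replicate 2. The genotype count in hindbrain, 0, ran from 0 to 1 without 1 mouse, and was 1 without wild-type replicate 3 (*Camk2d*). DESeq2 called 31, 62 and 60 of all genes in forebrain, midbrain and hindbrain between genotypes, 29 summed per mouse and 51 for the interaction, where edgeR called 0, 1, 0, 1 and 0. The interaction called 131 genes without the mice of replicate 3, 7 with no filter on low counts, and 2 and 4 without Fmr1CRE replicates 2 and 3. With no filter on low counts, midbrain and hindbrain each gave 11 genes and the sums per mouse 4, midbrain gave 3 without both libraries of replicate 3 and 4 without Fmr1CRE replicate 3, and hindbrain 5 without wild-type replicate 3.

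Scaling by total counts alone shifted the median log2 fold change of all genes to -0.15 in forebrain against hindbrain and -0.11 in midbrain against hindbrain. It called 4349 genes higher and 6819 lower in the former, against 5383 and 5147, and 1391 and 2926 in forebrain against midbrain, against 1911 and 2028. It reversed 0 of the 10 genes.

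The log2 *Camk2a* to *Camk2b* ratio kept its sign in all alternatives between regions. In Fmr1CRE mice only it differed by 3.79 (forebrain against hindbrain), 0.55 (forebrain against midbrain) and 3.24 (midbrain against hindbrain), and in wild-type mice only by 4.41, 0.94 and 3.46, where 3 mice allow no exact p under 0.25. Without 1 mouse it ran from 4.02 to 4.26, 0.57 to 0.82 and 3.24 to 3.47, where 5 mice allow none under 0.0625. Between genotypes, leaving out 1 mouse gave values from -0.239 to 0.055 in midbrain, and in hindbrain the range was -0.041 to 0.332. Without both libraries labelled replicate 3, the values were -0.37 in midbrain and 0.41 in hindbrain. The inhibitor ratio in forebrain against hindbrain was 0.27 with abundance-weighted lengths, an alternative chosen after seeing the data, as it was for the subunit shares and the order per kb, and 0.20 in Fmr1CRE mice only. With no replicate block its differences of 0.50 and -0.69 passed the threshold (adjusted exact permutation p = 0.00974 and 0.00649).

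Directions that turned were those of small differences that had missed the threshold. In wild-type mice only, forebrain against hindbrain gave 0.25 for *Camk2d*, 0.16 for *Camk2g* and 0.047 for *Camk2n2*. In Fmr1CRE mice only, midbrain against hindbrain gave -0.14 for *Camk2d* and -0.11 for *Camk2g*, and forebrain against midbrain -0.10 for *Camk1d*. *Camk1d* was also at -0.048 without the forebrain libraries labelled replicate 3 and ran from -0.035 to 0.121 without 1 mouse, and *Camk2d* in forebrain against hindbrain ran from -0.42 to 0.16. The cause of these changes was not tested. The mouse as a replicate block ended the 4 calls given with it and changed no other call of the 10 genes, and the replicate number as a block between genotypes left each count at 0. All 10 genes were counted in each library, so no value rested on a count of 0.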
